A study of Mus musculus with 10 samples.

Results

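MHC class I antigen presentation was followed through 10 genes: the heavy chain genes H2-K1, H2-D1, H2-Q2, H2-T23 and H2-M3, the light chain gene B2m, and Tap1, Tap2, Tapbp and Erap1, whose products supply, trim and load peptides. The members were all the probe sets whose annotation gave 1 of these symbols and no other, which selected 25 of the 22626 probe sets that were not controls. A probe set is a group of short probes designed against 1 transcript or group of transcripts, and its value is a log2 intensity. They belonged to 9 of the 10 genes, out of 12393 genes with a probe set of their own. The probe sets that list H2-T23 also list a pseudogene, so no value is given for H2-T23.

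The arrays compared inguinal mammary gland RNA from 5 QSi5 and 5 CBA mice on day 9 of the first lactation, with 1 array per mouse, to find transcripts that differ between a strain with high and a strain with low maternal performance. QSi5 is an inbred strain derived from outbred Quackenbush-Swiss mice by selection for litter size and a short interval between litters. CBA stands for CBA/CaH, an inbred strain without that selection, and the sources name no transgene or agent for either strain. Mice of both strains were weaned from their litters by force before the gland was taken, and their exact age on that day is not given in the sources used here. In each strain 3 mice were measured on the MOE430 2.0 chip (QSi5 replicates 3, 4 and 5 and CBA replicates 1, 4 and 5) and 2 mice on the MOE430A 2.0 chip (QSi5 replicates 1 and 2 and CBA replicates 2 and 3). Per the sample descriptions both chip types were used, whereas the methods name the MOE430A chip alone.

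MHC class I molecules display short peptides from inside the cell to T cells and natural killer cells. The heavy chain folds with beta-2-microglobulin in the endoplasmic reticulum, a transporter made of Tap1 and Tap2 brings in peptides cut by the proteasome, and tapasin holds the empty molecule at the transporter until a peptide fits. Nearly all nucleated cells carry these molecules, interferons raise the transcription of most of the pathway, and in mice the heavy chain genes differ strongly in sequence between strains. In the annotation 8 of the 10 genes were on chromosome 17, the chromosome of the mouse MHC, while B2m was on chromosome 2 and Erap1 on chromosome 13.

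The promoters of the 3 heavy chain genes with a strain difference and of B2m are printed because they show how alike the start regions of H2-K1 and H2-D1 are. Each is the RefSeq sequence of build GRCm38.p6, the C57BL/6J reference and so of neither strain measured here, and is written 5′ to 3′ on the strand of the gene. H2-K1 is at chr17:34000298-34000597 on the minus strand, H2-D1 at chr17:35262844-35263143, H2-Q2 at chr17:35342057-35342356 and B2m at chr2:122147437-122147736, all 3 on the plus strand. Capitals mark 3 short sequences, searched on both strands: GGGGATTCCCC, the enhancer A core bound by NF-kB proteins, AANNGAAA, an element read by interferon regulatory factors, and TGACGC, the core of the X2 box. No marked match overlaps another.
H2-K1: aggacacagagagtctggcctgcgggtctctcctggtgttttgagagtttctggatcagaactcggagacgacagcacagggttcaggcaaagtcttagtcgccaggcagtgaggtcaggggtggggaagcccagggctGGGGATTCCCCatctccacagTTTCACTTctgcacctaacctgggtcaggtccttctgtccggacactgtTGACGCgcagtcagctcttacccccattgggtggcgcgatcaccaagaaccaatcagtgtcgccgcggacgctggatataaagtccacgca
H2-D1: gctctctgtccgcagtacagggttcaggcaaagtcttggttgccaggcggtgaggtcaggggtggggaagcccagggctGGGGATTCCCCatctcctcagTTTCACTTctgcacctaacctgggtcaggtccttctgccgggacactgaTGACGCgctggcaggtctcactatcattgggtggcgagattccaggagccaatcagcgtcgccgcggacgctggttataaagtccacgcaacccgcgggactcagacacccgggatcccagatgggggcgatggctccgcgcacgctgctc
H2-Q2: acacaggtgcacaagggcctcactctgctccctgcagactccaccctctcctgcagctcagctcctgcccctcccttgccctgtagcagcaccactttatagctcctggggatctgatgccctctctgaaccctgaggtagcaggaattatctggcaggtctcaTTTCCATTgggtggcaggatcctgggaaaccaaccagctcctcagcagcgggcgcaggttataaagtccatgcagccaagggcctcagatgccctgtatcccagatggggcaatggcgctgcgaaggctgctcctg
B2m: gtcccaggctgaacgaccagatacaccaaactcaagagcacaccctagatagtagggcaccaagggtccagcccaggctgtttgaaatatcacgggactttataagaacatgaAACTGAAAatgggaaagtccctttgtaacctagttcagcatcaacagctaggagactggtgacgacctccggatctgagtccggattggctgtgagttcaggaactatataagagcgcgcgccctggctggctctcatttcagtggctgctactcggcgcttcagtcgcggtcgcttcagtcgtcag

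H2-K1 and H2-D1 were identical at 211 of 239 aligned bases (88.3%). The share was 59.8% for H2-K1 with H2-Q2 and 66.5% for H2-D1 with H2-Q2. For H2-K1 with B2m, which encodes no heavy chain, it was 50.4%. The enhancer A core was present in H2-K1, 111 bases before the annotated start, and in H2-D1, 171 bases before it, so in 2 of the 9 member promoters held by the RefSeq table (22.2%). Among all 27025 promoters of the same length, 6 (0.0222%) held it, and the other 4 genes were Atg16l2, Aipl1, Pdzd2 and the class I gene H2-Q6. The interferon element was found in 7 of 9 member promoters (77.8%), all but those of Tap1 and Tapbp, and in 24.2% of all promoters. The X2 core was found in H2-K1, H2-D1 and H2-M3, 3 of 9 (33.3%), and in 7.5% of all promoters. In H2-K1 the interferon element lay 90 and the X2 core 41 bases before the annotated start, against 150 and 101 in H2-D1. The start lies inside the printed window, so these distances and those of enhancer A depend on where it is annotated. The enhancer A letters were read from the H2-K1 promoter itself, so its match was fixed in advance and the enhancer A shares are no test. The letters searched were all chosen with these promoters in view, and a match describes the letters in the window only.

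Array medians of all probe sets were between 4.21 and 4.30, so the arrays were on a common scale. Among 10 lists of cell type markers 2 of 37 tested genes differed between the strains after adjustment, against 2.94% of all tested probe sets. They were the epithelial keratin Krt8, which was lower in QSi5, and the macrophage complement gene C1qa, which was higher. All 8 markers of milk-secreting epithelium were above the intensity minimum. Their summed unlogged intensities were 76181 to 80107 in QSi5 and 70920 to 77111 in CBA. The lowest sum of each strain was that of QSi5 replicate 4 and of CBA replicate 3. The same mice stood apart in genes related to this pathway. In QSi5 replicate 4 the summed unlogged intensity of 5 general leukocyte genes was 1220, against 132 to 169 in the other QSi5 mice, and in CBA replicate 3 it was 225, against 113 to 138 in the other CBA mice. Differences that move with either mouse are given with and without it. Fewer cells of a type and less RNA per cell cannot be told apart in whole tissue.

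Of the 25 probe sets, 17 had a mean log2 intensity above 4.32 (20 unlogged) in at least 1 strain and entered the fit. The other 8 were under this minimum in both strains. H2-K1, H2-D1 and H2-Q2 each had probe sets that differed between the strains, and none of the other 6 measured genes did. Higher intensity in QSi5 was called for 6 of the 17 probe sets and lower intensity for 1. The threshold was an adjusted p under 0.05 (limma, Benjamini-Hochberg over 11412 probe sets). Over all 11412 probe sets 1.44% were called higher, 1.51% lower and 2.94% in either direction. All 5 QSi5 mice were above all 5 CBA mice for 7 of the 17 and below them for 1, against 2.51% and 2.63% of all probe sets. Of the 17, 3 passed the minimum through 1 strain alone, which favours a difference. These counts therefore describe the probe sets measured and not the pathway. The median difference was 0.28 on the log2 scale, against 0.00 over all probe sets tested, and the median size without sign was 0.40, against 0.14. Of the 17, 9 carry the suffix _x_at, which marks sets with probes that can bind other sequences, and these are all the tested sets of H2-K1 and H2-D1. Their signal may come in part from each other or from further class I genes, so which gene each one reads is uncertain. The probes of the H2-K1, H2-D1 and H2-Q2 sets were not compared with the strains' own sequences. An intensity difference of these sets is thus not shown to be one of expression.

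**Figure D1:**
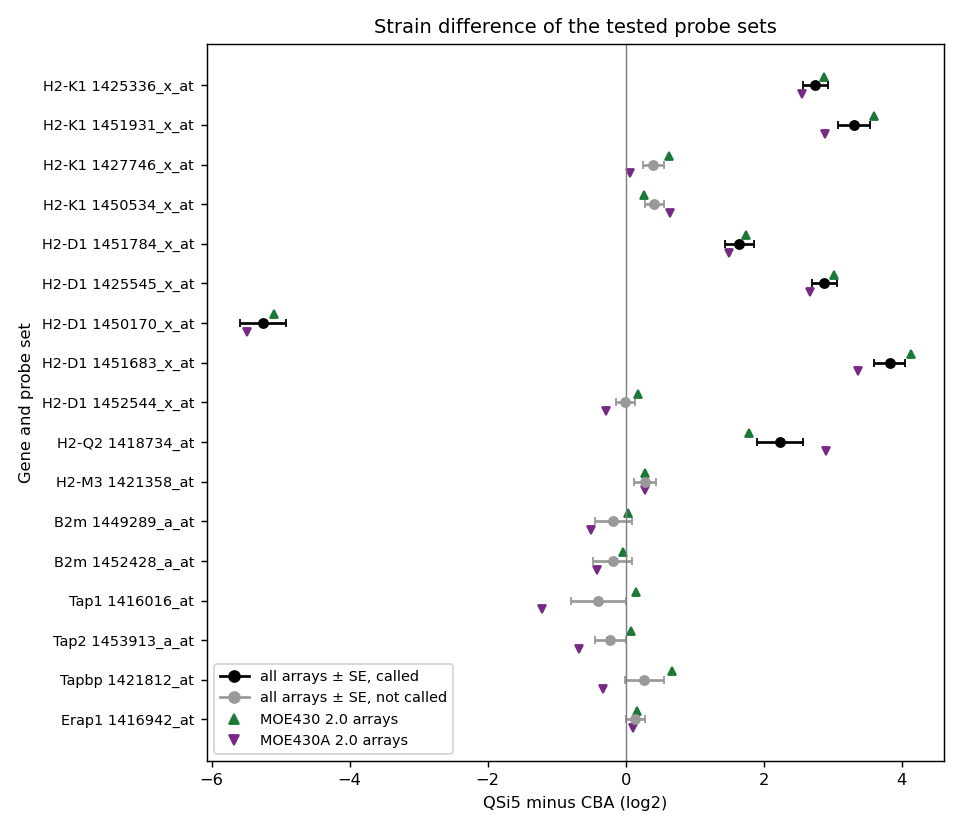
Strain difference (QSi5 minus CBA, log2) of each of the 17 member probe sets tested, over all 10 arrays with its standard error (black where called, grey where not) and within the MOE430 2.0 arrays (upward triangles) and the MOE430A 2.0 arrays (downward triangles). The 7 called sets, all of H2-K1, H2-D1 and H2-Q2, have the same sign on both chip types, whose arrays gave the calls. The other 10 lie between -0.40 and 0.42.

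H2-K1 encodes a classical class I heavy chain, which presents peptides to cytotoxic T cells. Its probe set 1425336_x_at gave log2 intensities of 9.36, 9.34, 9.57, 9.97 and 9.50 in QSi5 replicates 1 to 5, against 6.61, 6.46, 7.13, 6.53 and 7.26 in CBA replicates 1 to 5. Every QSi5 mouse was above every CBA mouse, by more than 2 log2 units. The means were 9.55 ± 0.26 in QSi5 and 6.80 ± 0.37 in CBA (SD, n = 5 each), a difference of 2.75 with a standard error of 0.18, or 6.71-fold (limma adjusted p = 2.68e-06). Probe set 1451931_x_at gave 8.44, 8.40, 8.52, 9.04 and 8.44 in QSi5, against 4.71, 5.02, 6.04, 5.54 and 4.96 in CBA. The groups again did not overlap, QSi5 replicate 4 was the highest of its strain and CBA replicate 3 the highest of its own. The difference was 3.31 with a standard error of 0.23, or 9.94-fold (limma adjusted p = 4.16e-06).

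The other H2-K1 probe sets showed smaller differences that did not pass the test. Probe set 1427746_x_at gave 5.67, 5.50, 5.51, 5.96 and 5.53 in QSi5 and 4.93, 5.50, 5.54, 4.94 and 5.25 in CBA. The strains overlapped through CBA replicates 2 and 3, both on the MOE430A chip, and the difference was 0.40 with a standard error of 0.15 (limma adjusted p = 0.219). Within chip types the difference was 0.63 for MOE430 2.0 and 0.07 for MOE430A 2.0. Probe set 1450534_x_at gave 4.95, 5.53, 4.79, 4.89 and 4.88 in QSi5 and 4.44, 4.58, 4.61, 4.59 and 4.74 in CBA. All QSi5 mice were above all CBA mice, yet by only 0.42 with a standard error of 0.14 (limma adjusted p = 0.164). Of the 4 probe sets given to this gene, 2 were thus called higher and 2 were not called.

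H2-D1, the second classical heavy chain measured, had 9 probe sets, of which 5 were tested, and these pointed in opposite directions. Probe set 1450170_x_at gave 3.66, 3.04, 2.76, 2.46 and 3.18 in QSi5, against 7.45, 8.18, 9.51, 8.30 and 7.93 in CBA. All QSi5 mice were under the intensity minimum and all CBA mice were far above it, with CBA replicate 3 the highest. The means were 3.02 ± 0.45 in QSi5 and 8.27 ± 0.76 in CBA (SD, n = 5 each), a fitted log2 difference of -5.25 with a standard error of 0.33 (limma adjusted p = 1.94e-06). Since QSi5 was under the intensity minimum, the size is only a bound: the CBA mean was 15.5-fold above that minimum.

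Probe set 1451683_x_at showed the reverse pattern for the same gene. It gave 6.68, 6.71, 6.43, 7.17 and 6.97 in QSi5, against 2.66, 2.78, 3.87, 2.71 and 2.79 in CBA. All CBA mice were under the minimum and all QSi5 mice above it. The fitted log2 difference was 3.83 with a standard error of 0.23 (limma adjusted p = 1.25e-06), and as a bound the QSi5 mean was 5.54-fold above the minimum. Both this probe set and 1450170_x_at passed the minimum through 1 strain alone.

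A further pair of H2-D1 probe sets was above the minimum in both strains. Probe set 1425545_x_at gave 8.79, 8.28, 8.81, 9.27 and 8.97 in QSi5, against 5.81, 5.57, 6.17, 6.15 and 6.03 in CBA, a difference of 2.88 with a standard error of 0.18, or 7.36-fold (limma adjusted p = 1.75e-06). Probe set 1451784_x_at gave 8.26, 8.15, 8.83, 8.96 and 8.34 in QSi5, against 7.09, 6.20, 7.21, 6.90 and 6.92 in CBA, a difference of 1.65 with a standard error of 0.21, or 3.13-fold (limma adjusted p = 0.000789). Neither set had any overlap between the strains. The fifth tested set, 1452544_x_at, gave 4.49, 4.42, 4.65, 4.51 and 4.61 in QSi5 and 4.36, 4.48, 4.99, 4.58 and 4.28 in CBA. Its strains overlapped fully, and the difference of -0.00 had a standard error of 0.13 (limma adjusted p = 0.994).

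Of the 5 tested H2-D1 sets, 3 were thus called higher, 1 lower and 1 was not called. The probes of these sets were not compared with the strains' own class I sequences, and their part in the opposite directions was not tested. The other 4 H2-D1 sets were under the minimum in both strains and were not tested. One of them, 1426324_at, averaged 4.19 ± 0.47 in QSi5 and 3.33 ± 0.10 in CBA (SD, n = 5 each) with no overlap, while 1427651_x_at, 1425614_x_at and 1451934_at overlapped.

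**Figure D2:**
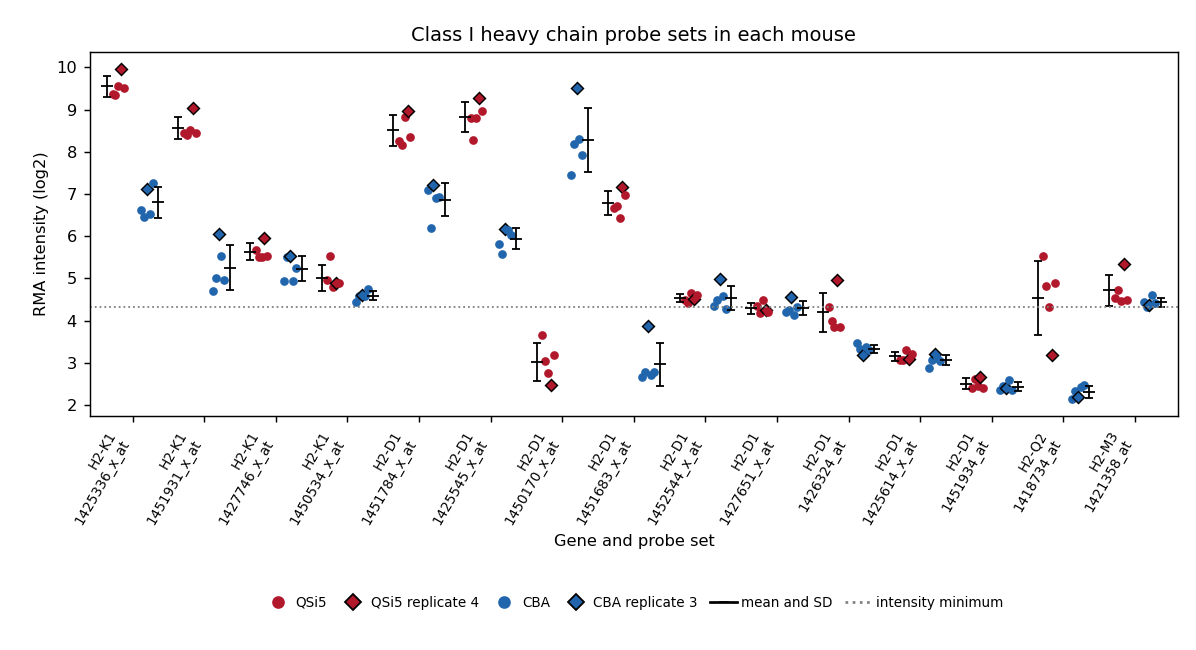
Log2 intensity of each heavy chain probe set in each mouse, QSi5 (red) left of CBA (blue), with the mean and SD of each strain in black and the intensity minimum as a dotted line. Diamonds mark QSi5 replicate 4 and CBA replicate 3. Within H2-D1, QSi5 averages 3.02 and CBA 8.27 for 1450170_x_at, while QSi5 averages 6.79 and CBA 2.96 for 1451683_x_at.

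H2-Q2 belongs to the nonclassical Q region of the MHC and has 1 probe set, 1418734_at, which carries no suffix for shared probes. It gave 5.54, 4.81, 4.31, 3.19 and 4.89 in QSi5, against 2.13, 2.34, 2.19, 2.43 and 2.48 in CBA. All QSi5 mice were above all CBA mice, but QSi5 replicate 4 was the lowest of its strain, under the minimum, and replicate 3 was just under it. The means were 4.55 ± 0.88 in QSi5 and 2.31 ± 0.15 in CBA (SD, n = 5 each), a fitted log2 difference of 2.23 with a standard error of 0.33 (limma adjusted p = 0.00237). As a bound, the QSi5 mean was only 1.17-fold above the minimum, and without QSi5 replicate 1, or on the MOE430 2.0 arrays alone, the probe set missed the minimum in both strains and was not tested.

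H2-M3 encodes a nonclassical heavy chain that presents peptides starting with formyl-methionine, as bacteria and mitochondria make. Its probe set 1421358_at gave 4.54, 4.72, 4.48, 5.34 and 4.49 in QSi5 and 4.44, 4.33, 4.37, 4.60 and 4.42 in CBA. The strains overlapped, and QSi5 replicate 4 alone was above 5. The difference was 0.28 with a standard error of 0.16 (limma adjusted p = 0.454), and without QSi5 replicate 4 it was 0.12.

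B2m, the light chain shared by all class I molecules, did not differ between the strains beyond the spread between mice. Probe set 1449289_a_at gave 9.76, 10.19, 9.76, 10.02 and 9.64 in QSi5 and 9.79, 9.75, 11.19, 10.02 and 9.52 in CBA. Probe set 1452428_a_at gave 8.74, 9.22, 8.94, 9.36 and 8.79 in QSi5 and 9.09, 8.52, 10.26, 9.42 and 8.70 in CBA. In both sets the strains overlapped and CBA replicate 3 was the highest mouse of all. The differences were -0.18 with a standard error of 0.27 and -0.19 with a standard error of 0.28 (limma adjusted p = 0.807 for each), and without CBA replicate 3 they were 0.10 and 0.08.

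Tap1 and Tap2 form the transporter that moves peptides into the endoplasmic reticulum. Tap1 (1416016_at) gave 4.35, 4.79, 4.43, 5.14 and 4.62 in QSi5 and 4.34, 4.71, 6.86, 4.58 and 4.82 in CBA. CBA replicate 3 stood more than 2 log2 units above the next CBA mouse, and the other 4 CBA mice lay within the range of QSi5 apart from replicate 1, which was just under it. The difference was -0.40 with a standard error of 0.40 (limma adjusted p = 0.702), and 0.05 without CBA replicate 3. Tap2 (1453913_a_at) gave 6.13, 5.65, 5.99, 6.02 and 6.16 in QSi5 and 5.97, 5.95, 7.18, 6.06 and 5.91 in CBA. The same CBA mouse stood apart, the difference was -0.22 with a standard error of 0.23 (limma adjusted p = 0.703), and without that mouse it was 0.02. A further 3 Tap1 sets, 1448177_at, 1449803_x_at and 1420274_at, were under the minimum in both strains.

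Tapbp encodes tapasin, which bridges the heavy chain and the transporter. Its probe set 1421812_at gave 8.29, 8.40, 8.22, 8.22 and 8.25 in QSi5 and 7.59, 8.09, 9.25, 7.59 and 7.48 in CBA. QSi5 mice lay close together, 4 CBA mice were under all of them and CBA replicate 3 was above all of them. The difference was 0.27 with a standard error of 0.28 (limma adjusted p = 0.71). Without CBA replicate 3 it was 0.59 and was called (limma adjusted p = 0.0373), and with QSi5 replicate 4 left out as well it was 0.60 and was not (limma adjusted p = 0.0660). It was 0.68 on the MOE430 2.0 arrays alone (limma adjusted p = 0.0255) and -0.33 on the MOE430A 2.0 arrays, which hold CBA replicate 3. The second Tapbp set, 1450378_at, was under the minimum in both strains.

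Erap1, the aminopeptidase that trims peptides in the endoplasmic reticulum, gave 5.42, 5.03, 5.08, 5.01 and 5.07 in QSi5 and 5.05, 4.96, 5.28, 5.03 and 4.56 in CBA (1416942_at). The strains overlapped, with QSi5 replicate 1 the highest mouse and CBA replicate 5 the lowest. The difference was 0.14 with a standard error of 0.14 (limma adjusted p = 0.691). Over all 10 member probe sets that were not called, adjusted p was 0.164 to 0.994.

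**Figure D3:**
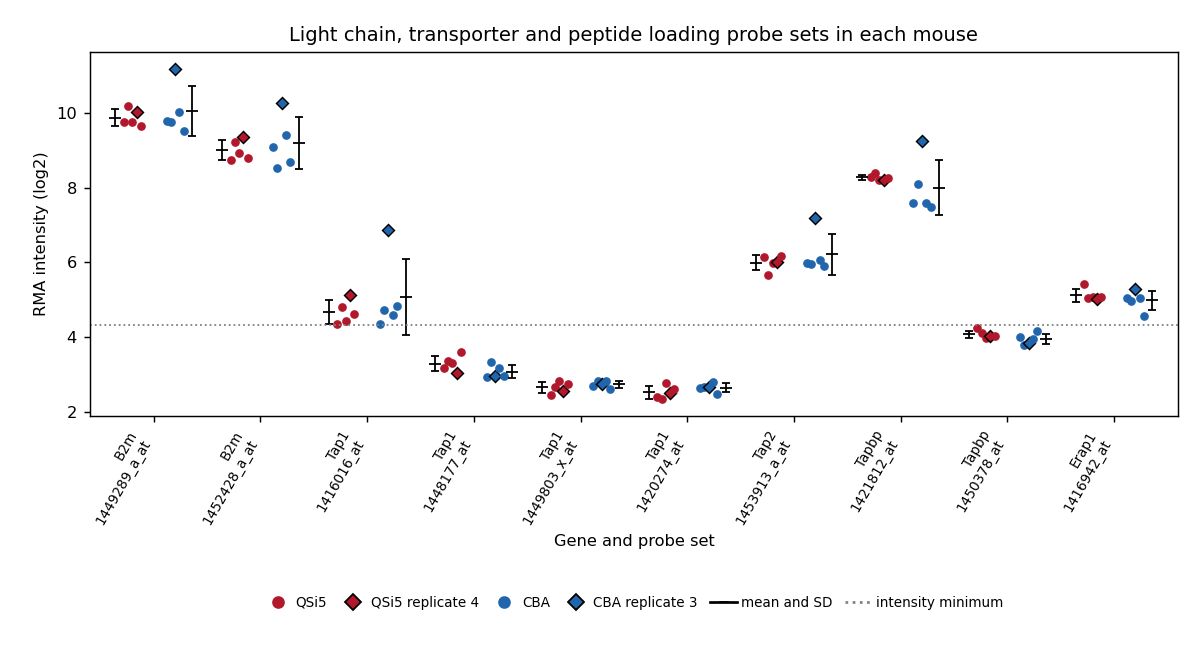
Log2 intensity of each B2m, Tap1, Tap2, Tapbp and Erap1 probe set in each mouse, QSi5 (red) left of CBA (blue), with the mean and SD of each strain in black and the intensity minimum as a dotted line. Diamonds mark QSi5 replicate 4 and CBA replicate 3. CBA replicate 3 reaches 6.86 for Tap1 (1416016_at), 7.18 for Tap2 and 9.25 for Tapbp, above every other mouse in each of these sets.

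The called strain differences of the heavy chains pointed one way on both chip types, although not all passed the test there. The difference of H2-K1 within MOE430 2.0 and within MOE430A 2.0 was 2.88 and 2.55 for 1425336_x_at and 3.60 and 2.89 for 1451931_x_at. That of H2-D1 was -5.09 and -5.50 for 1450170_x_at and 4.13 and 3.37 for 1451683_x_at, and that of H2-Q2 was 1.78 and 2.91. For the H2-D1 sets 1425545_x_at and 1451784_x_at it was 3.02 and 2.67 and 1.74 and 1.504. On the MOE430A 2.0 arrays alone 1451784_x_at was not called (limma adjusted p = 0.184), and on the MOE430 2.0 arrays alone H2-Q2 was under the minimum and not tested. All 7 called probe sets, and 12 of the 17 tested, had the same sign on both chip types. The 7 were called over these same arrays, and 3 of them passed the minimum through 1 strain alone. Their shared sign is therefore no separate check. The smallest p for a dependence on chip type among the 17 was 0.0220, for Tapbp, or 0.886 after adjustment over all probe sets (limma interaction term). With both QSi5 replicate 4 and CBA replicate 3 left out, the differences were 2.72 and 3.39 for the H2-K1 sets 1425336_x_at and 1451931_x_at. They were -4.81, 3.96, 2.83 and 1.62 for the H2-D1 sets 1450170_x_at, 1451683_x_at, 1425545_x_at and 1451784_x_at and 2.54 for H2-Q2, and all 7 were still called.

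In each strain 1 mouse was often the highest. CBA replicate 3 was the highest CBA mouse in 13 of the 17 tested member probe sets (76.5%), against 27.0% of all probe sets tested. QSi5 replicate 4 was the highest QSi5 mouse in 9 of 17 (52.9%), against 19.7% of all. H2-Q2 was an exception to the second count, since QSi5 replicate 4 was its lowest QSi5 mouse.

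The immunoproteasome genes, whose products replace or activate parts of the proteasome under interferon, followed the same mice. None of the 4 measured was called between the strains. The catalytic subunit gene Psmb9 gave 4.87, 4.90, 5.29, 6.07 and 5.31 in QSi5 and 5.28, 5.0, 8.03, 5.64 and 5.45 in CBA. Its difference was -0.59 with a standard error of 0.49 (limma adjusted p = 0.630). Psmb8, a second catalytic subunit gene, gave 6.28, 5.88, 5.99, 7.08 and 6.08 in QSi5 and 5.61, 5.51, 8.08, 6.0 and 5.67 in CBA. The difference of Psmb8 was 0.09 with a standard error of 0.44 (limma adjusted p = 0.953). For the third catalytic subunit gene, Psmb10, the values were 5.57, 5.08, 5.61, 6.07 and 5.50 in QSi5 and 5.21, 5.23, 7.19, 5.51 and 5.51 in CBA. For the proteasome activator gene Psme1 they were 6.97, 6.73, 6.81, 7.62 and 6.88 in QSi5 and 6.49, 6.41, 7.62, 6.71 and 6.21 in CBA. Their differences were -0.16 (limma adjusted p = 0.873) and 0.31 (limma adjusted p = 0.623). In all 4 genes QSi5 replicate 4 was the highest of QSi5 and CBA replicate 3 the highest of CBA. Without QSi5 replicate 4 the differences of Psmb9, Psmb8, Psmb10 and Psme1 were -0.79, -0.12, -0.29 and 0.16. Without CBA replicate 3 they were -0.0533, 0.56, 0.20 and 0.55, so the size of all 4 and the sign for Psmb8 and Psmb10 depended on these mice, and none was called either way. Psme2 was not analysed here.

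Irf1, an interferon-induced activator of class I transcription, gave 6.75, 7.12, 6.92, 7.41 and 7.05 in QSi5 and 6.78, 6.96, 8.06, 6.76 and 6.41 in CBA. It too was highest in QSi5 replicate 4 and CBA replicate 3, with a strain difference of 0.06 (limma adjusted p = 0.947), which was -0.0338 without QSi5 replicate 4 and 0.32 without CBA replicate 3. The leukocyte gene Ptprc, which encodes CD45, gave 4.83, 4.13, 4.29, 8.10 and 4.78 in QSi5 and 4.27, 4.12, 5.56, 4.13 and 3.77 in CBA. Its high values were in the same mice, with QSi5 replicate 4 well above CBA replicate 3. The difference of Ptprc was 0.86, against 0.14 without QSi5 replicate 4 and 1.16 without CBA replicate 3, and was not called. Of the 5 general leukocyte genes, all 5 were above the minimum and 0 were called. Of 9 macrophage and dendritic cell markers 7 were above the minimum. The summed unlogged intensity of all 9 was 610 to 1432 in QSi5 and 492 to 813 in CBA. It was highest in QSi5 replicate 4 and CBA replicate 3. Of 7 T cell markers 6 were measured and 1 was above the minimum. The sums over the 6 measured genes, mostly under the minimum, were 158 to 310 in QSi5, highest in replicate 4. In CBA they were 150 to 175, and replicate 3 was the lowest. B and plasma cell sums over 4 measured genes were 387 to 719 in QSi5 and 133 to 837 in CBA. QSi5 replicate 4 was at 551 and CBA replicate 3 at 328, neither of them the highest. Natural killer cell sums over 5 measured genes were 67.1 to 87.6 in QSi5 and 64.8 to 83.3 in CBA, highest in these mice. Most genes of both lists were under the minimum. The part of these cells in the class I values was not tested.

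**Figure D4:**
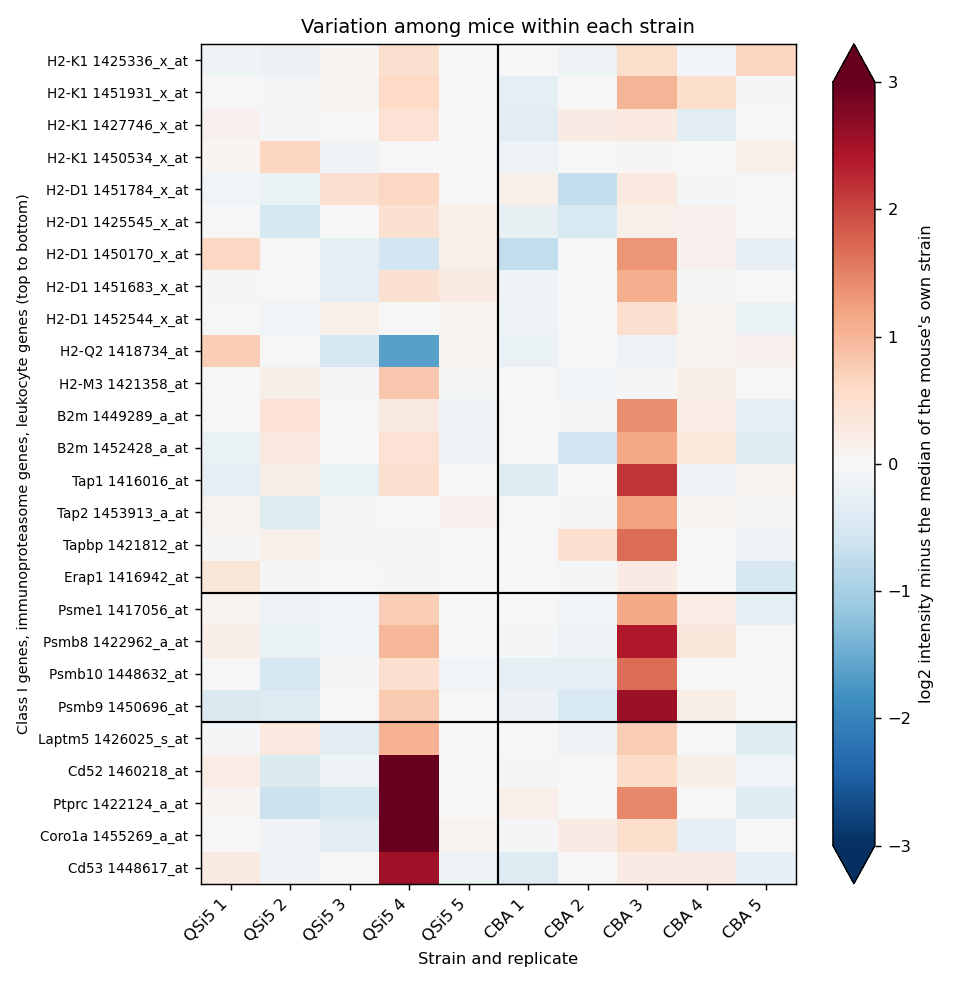
Heat map of the tested member probe sets, the immunoproteasome genes and the leukocyte genes in each mouse, QSi5 left of CBA, coloured by log2 intensity minus the median of the mouse's own strain with the colour scale ending at 3. CBA replicate 3 is above its strain's median in the Tap1, Tap2, Tapbp, B2m and immunoproteasome probe sets, and QSi5 replicate 4 deviates most in the leukocyte genes, by up to 3.83.

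Other genes of the class I pathway were read from 5 lists of 82 genes, of which 61 were measured and 41 were above the minimum, each by its brightest probe set. Of these, 1 was called higher, 1 lower and 39 were not called, against 1.44% higher and 1.51% lower over all tested probe sets. Both calls were among the heavy chain relatives, of which 25 were listed and 6 tested. Azgp1, which encodes a secreted relative of the class I heavy chain, gave 5.40, 5.25, 5.43, 5.35 and 5.52 in QSi5 and 5.03, 4.95, 4.40, 4.85 and 4.84 in CBA. All QSi5 mice were above all CBA mice, and the difference was 0.57 with a standard error of 0.12, or 1.49-fold (limma adjusted p = 0.0252). The lipid-presenting gene Cd1d1 (1449131_s_at) gave 6.39, 6.71, 6.49, 6.66 and 6.18 in QSi5 and 7.68, 7.08, 7.85, 7.00 and 6.98 in CBA. All QSi5 mice were below all CBA mice, with a difference of -0.83 and a standard error of 0.19, or 1.78-fold lower in QSi5 (limma adjusted p = 0.0332). A second Cd1d1 set, 1449130_at, was also lower in QSi5, by a log2 difference of -1.43 with a standard error of 0.29 (limma adjusted p = 0.0175), and this call was lost without any of QSi5 replicates 3, 4 or 5 (limma adjusted p = 0.0567, 0.0519 and 0.0534).

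The calls of both genes were near the threshold. The call of Azgp1 was lost without any of QSi5 replicates 1, 3, 4 or 5 or CBA replicate 5, with adjusted p over the 10 such fits of 0.0239 to 0.0792. That of Cd1d1 (1449131_s_at) was lost without any of the same QSi5 replicates or CBA replicate 1 or 3, with adjusted p of 0.0267 to 0.0940. Among the 14 tested genes of peptide loading and protein folding, such as the chaperones calreticulin and calnexin, 0 were called. Their differences were -1.09 to 0.18, the lowest being that of Hspa5, just over the threshold (limma adjusted p = 0.0590). Among 16 tested regulators of class I transcription and interferon signalling 0 were called, with differences of -0.49 to 0.45, and Nlrc5 was not analysed here. Of 12 listed leukocyte receptors of class I molecules or their relatives, 1 was above the minimum, Klrk1, with a difference of 0.01, and it was not called.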

How the data were processed

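Glands of 5 QSi5 and 5 CBA mice were profiled on 10 Affymetrix arrays. The deposited log2 values were computed by the authors with RMA (background correction, quantile normalization and a probe summary) in the affy package, normalizing both chip types together on the 22690 probe sets they share. RMA forces the arrays to a common distribution, so only changes relative to it are seen. Versions are not given in the sources used here. The replicates were separate mice.

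Groups were the strains in the sample titles. Of 22626 probe sets that were not controls, 20380 had 1 gene symbol in the platform annotation, 691 had several and 1555 had none. The methods' minimum of 20 was used, and probe sets were kept where a strain's mean log2 value exceeded it when unlogged (11412). For these, QSi5 minus CBA was estimated in R 4.3.3 by the two-sided moderated test of limma 3.58.1. Benjamini-Hochberg adjustment was over all of them. Folds are brighter over dimmer on the unlogged scale. The fit was tested on simulated data. Arrays give no read depth, and 5 mice per strain limit the precision. The 25 probe sets with 1 member symbol are named, and 5 that list a member beside other symbols were not used. Also named are called genes of the other lists, Irf1 and the immunoproteasome. The members, lists and motifs were chosen with earlier results of these data known. Alternatives were other intensity filters, normalizations, fits and blocks, each chip type alone, each mouse left out and, chosen after seeing the data, a pair of mice left out.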

Additional observations from a re-analysis of the deposited data

Results flagged for a closer look

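In 11 of the 46 sets of 5 mice examined, 1 mouse lay far from the others of its strain by Dixon's criterion for 5 values. Chance gives about 1 in 20, but the sets read the same mice and are not independent, so the count is no test. CBA replicate 3 was the mouse in 6 of the 11 and QSi5 replicate 4 in 3. CBA replicate 3 was at 3.87 for the H2-D1 set 1451683_x_at (other CBA mice 2.66 to 2.79), where all CBA mice were under the intensity minimum. It was at 6.86 for Tap1 (4.34 to 4.82) and 7.18 for Tap2 (5.91 to 6.06). In the same mouse Psmb8 was at 8.08 (5.51 to 6.0), Psmb10 at 7.19 (5.21 to 5.51) and Psmb9 at 8.03 (5.0 to 5.64). These 6 cases were in the transporter, the inducible proteasome subunits and 1 heavy chain set.

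QSi5 replicate 4 was at 9.04 for the H2-K1 set 1451931_x_at (other QSi5 mice 8.40 to 8.52), 5.34 for H2-M3 (4.48 to 4.72) and 7.62 for Psme1 (6.73 to 6.97). The remaining cases were QSi5 replicate 2 at 5.53 for the H2-K1 set 1450534_x_at (4.79 to 4.95) and QSi5 replicate 1 at 5.42 for Erap1 (5.01 to 5.08). No cause was tested.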

How the results depend on the processing

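The 7 called member probe sets kept their direction in all 151 alternative fits that tested them and their call in 150. The exception was the H2-D1 set 1451784_x_at on the MOE430A 2.0 arrays alone (1.504, limma adjusted p = 0.184). Of the 7, 3 passed the minimum through 1 strain alone, so their fits say little about stability. H2-Q2, 1 of these 3, was tested in only 19 alternatives, as it otherwise missed the minimum. With single mice left out, 5 to 7 member probe sets were called higher and 1 to 1 lower, and their median difference was 0.23 to 0.42. Without the _x_at and _s_at sets, 1 was called higher and 0 lower of 8, with a median of -0.0188, and with each gene read by its brightest set, 3 were higher and 0 lower of 9. At a minimum of 50 the median was 0.96 over 10 sets. Replicate numbers did not pair the mice, as same-numbered mice correlated at -0.37 to 0.29 and 1 of 5 matched best its own number. With the replicate number as a block 260 of 11412 probe sets were called in place of 336, and 6 member probe sets were still higher and 1 lower.

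Some differences that were not called over all arrays changed sign. On the MOE430 2.0 arrays alone the H2-D1 set 1452544_x_at was 0.18, B2m (1449289_a_at) 0.0307, Tap1 0.15 and Tap2 0.0740, and on the MOE430A 2.0 arrays alone Tapbp was -0.33. With QSi5 replicate 4 and CBA replicate 3 both left out, 1452544_x_at was 0.12, B2m (1449289_a_at) 0.0676 and Tap2 0.0088, and with array weights 1452544_x_at was 0.10. With single mice left out the ranges were -0.0665 to 0.11 for 1452544_x_at, -0.31 to 0.10 and -0.36 to 0.0755 for the B2m sets, -0.58 to 0.0516 for Tap1, -0.30 to 0.0167 for Tap2 and 0.14 to 0.59 for Tapbp.

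Of the other class I lists, 1 gene was called higher and 1 lower. With single mice left out 0 to 2 were higher and 0 to 3 lower. On each chip type alone, with the replicate block and with an ordinary t-test without moderation 0 were higher and 0 lower. At a minimum of 50, 0 were higher and 2 lower. A second quantile normalization, chip type as a block and array weights each gave 2 lower, and leaving out QSi5 replicate 4 and CBA replicate 3 gave 0 lower. Over all probe sets 65 (MOE430A 2.0 arrays alone) to 464 (array weights) were called, against 336 as reported. Chip type as a block gave 413, the MOE430 2.0 arrays alone 146 and the ordinary t-test 205. The cause of these changes was not tested.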
